A study of Mus musculus with 2 samples.

Results

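The genes described here are the 83 protein-coding genes of the mouse RefSeq annotation (GRCm38.p6, the mm10 build) whose symbol is Il followed directly by a digit. They were taken from 21900 coding genes by symbol, and the rule uses no measured value. Earlier results of these data were, however, known when the group was chosen. They comprise 39 ligands, 42 receptor chains or binding proteins, and 2 overlapping genes for an amino acid oxidase that carry an interleukin name (Il4i1 and Il4i1b). The measurement was a list of regions called as peaks for the transcription factor HLF (hepatic leukemia factor), which belongs to the PAR bZIP group. Wild-type mouse LSK cells, the lineage-negative, Sca-1-positive and c-Kit-positive gate of hematopoietic stem and progenitor cells, received either a pMX retrovirus carrying FLAG-tagged Hlf with an IRES-GFP cassette or a pMX-GFP control virus. All cells then spent 5 days in OP9 medium with SCF (50 ng/ml), IL-7 (10 ng/ml), Flt3 ligand (10 ng/ml) and IL-3 (5 ng/ml), so both arms were exposed to 2 interleukins. Chromatin was precipitated with an anti-FLAG antibody, and there was 1 library per arm. The tagged factor came from the virus, so the list concerns introduced HLF and not the cells' own protein. The identity of the cells after culture was not checked, since a peak list holds no expression values.

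The list of the FLAG-HLF library held 3153 peaks, each 400 bases wide, as positions without heights, scores or read counts. Depth is therefore unknown, and a gene without a peak cannot be called unbound. Peaks of the GFP control arm were not used here. Whether regions also found in that arm were removed from the FLAG-HLF list is not stated in the sources used here. With 1 list there are no replicates, and the values below are counts and distances with no test. A peak was given to the coding gene that held its centre, and failing that to whichever coding gene had an end closest by, up to 100 kb away. By this rule 2994 peaks were given to a gene.

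Interleukins are secreted proteins that carry signals between blood cells, and most act through a receptor built of several chains. Receptors of the common gamma chain, IL-3, IL-6, IL-12 and IL-10 families signal through JAK kinases and STAT factors. Those of the IL-1 and IL-17 families use adaptor proteins that lead to NF-kappaB. In early hematopoiesis IL-7 is known as a growth factor of lymphoid progenitors and IL-3 as one of myeloid progenitors.

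Of the 83 genes, 14 had at least 1 peak (16.9%), against 11.1% of all coding genes. Ligands and receptors each contributed, with 7 of 39 ligands (17.9%) and 7 of 42 receptors (16.7%). The ligand genes were Il1a, Il1b, Il2, Il6, Il10, Il15 and Il17d. The receptor genes were Il4ra, Il9r, Il21r, Il17ra, Il18r1, Il20ra and Il1rapl1. Together they had 21 peaks, 12 at ligands and 9 at receptors. There were 5 genes with at least 2 peaks (Il1b, Il2, Il6, Il15 and Il17ra), while 2.06% of all coding genes had as many. That count fell to 3 genes with a limit of 20 kb (against 1.61% of all coding genes) and to 3 with 5 kb (against 1.30%). It was 2 with noncoding genes in the assignment (against 1.31%) and 2 with centres inside the gene alone (against 1.01%). In the first 1576 lines of the list it was 3 (against 0.621%), and in the last 1577 it was 0 (against 0.616%). The share of all coding genes thus also fell under each of these settings. Among genes with a peak, those with several made up 35.7% here (5 of 14) and 18.7% overall (452 of 2420). When only centres inside a gene counted, 7 of the 83 genes had a peak (8.43%, against 6.73% of all coding genes). In the first 1576 lines of the list 12 of the 83 genes had a peak (14.5%, against 6.11% of all coding genes), and in the last 1577 lines 6 had one (7.23%, against 6.15%). Whether any of these shares differs from the background was not tested.

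**Figure D1:**
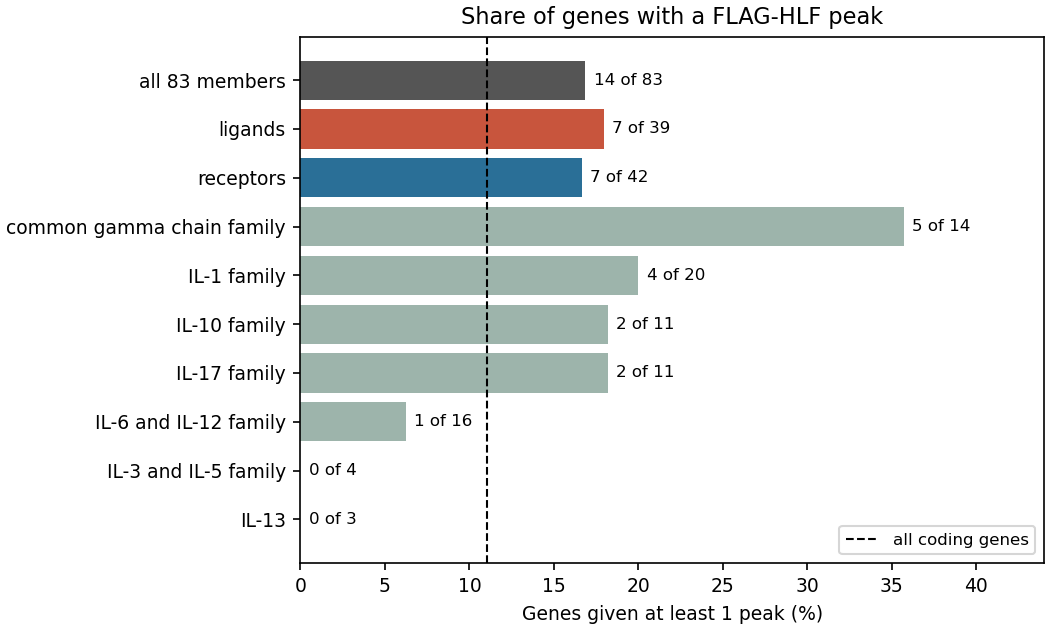
Share of genes given at least 1 FLAG-HLF peak, in percent, for all 83 genes, for ligands and receptors, and for 7 cytokine families. The number beside each bar counts genes with a peak, and the dashed line marks the 11.1% of all coding genes. The common gamma chain family has the longest bar, with 5 of 14 genes, and the IL-3 and IL-5 family and the IL-13 genes have none.

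A single gene had a peak that overlapped its promoter window, the 250 bases before and 50 bases after a listed start. It was Il17d, a ligand of the IL-17 family. Windows were listed for 66 of the 83 genes, so this was 1 gene of 66, against 0.949% of the coding genes with a window. The Il17d peak (chr14:57524327-57524726) was centred 0.303 kb upstream of the start of the gene on the plus strand. The part of the RefSeq promoter that lay under it, 148 bases at chr14:57524579-57524726 of GRCm38.p6, is shown because it is the only stretch of this gene group where peak and listed promoter meet.

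Il17d promoter under the peak: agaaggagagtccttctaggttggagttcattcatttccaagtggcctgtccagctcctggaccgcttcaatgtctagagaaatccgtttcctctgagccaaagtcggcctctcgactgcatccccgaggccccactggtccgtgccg

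PAR bZIP factors are known to bind a palindrome that joins TTAC to GTAA. The words TTACNTAA, TTANNTAA and GCAAT were searched on both strands, where TTANNTAA includes every match of TTACNTAA. None of the 3 occurred in this stretch of Il17d, which is therefore printed without capitals. Over all 32851 promoter windows, 2.32% held TTACNTAA and 6.003% held TTANNTAA. Of the 227 windows that overlapped a peak, 8.81% held the former and 15.9% the latter. For the interleukin and receptor genes it was 1 of 81 windows (1.23%) for TTACNTAA and 4 of 81 (4.94%) for TTANNTAA. The shorter word GCAAT occurred in 28 of the 81 windows (34.6%), in 26.4% of all windows and in 33.0% of the 227 windows that overlapped a peak.

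The window with TTACNTAA belonged to Il1rl2, the receptor chain for the IL-36 cytokines, on the plus strand of chromosome 1. It held the word 2 times on the opposite strand, and the capitals below mark the matches, which begin at positions -192 and -144 from the start. They are shown because the same letters recur within 1 promoter that has no peak.

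Il1rl2, chr1:40324382-40324419: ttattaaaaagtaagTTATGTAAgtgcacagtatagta

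Il1rl2, chr1:40324430-40324467: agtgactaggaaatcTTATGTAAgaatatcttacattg

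The closest peak to Il1rl2 was 134 kb away. The other windows with TTANNTAA were those of Il12rb2, Il18 and Il22, and none of these genes was given a peak either. A match or its absence in a promoter window describes the letters there, and 20 of the 21 peaks of the group lay outside the listed windows.

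Among the ligands, the genes for IL-1 alpha and IL-1 beta, which start inflammatory signalling through the IL-1 receptor, had 4 of the 12 peaks. Il1a and Il1b are neighbours on the minus strand of chromosome 2, with 54.4 kb and no other coding gene between them. That gap held 3 peaks, and a 4th lay just beyond Il1b. Il1a had 1 peak, 4.08 kb upstream of its start (chr2:129313848-129314247). Il1b had 3 peaks, all outside the gene. One was 2.22 kb upstream of its start (chr2:129373158-129373557), within the noncoding gene Il1bos. The other two lay past the end of transcription, 4.24 kb from it (chr2:129360134-129360533) and 26.3 kb from it (chr2:129338063-129338462). The last of these was nearly midway between the genes, since Il1a was 28.1 kb away, so its assignment to Il1b rests on a small difference in distance. Other ligands of the IL-1 family, among them Il18, Il33, the antagonist Il1rn and the IL-36 genes (listed as Il1f6, Il1f8 and Il1f9), had no peak. The antagonist and IL-36 genes form a cluster elsewhere on chromosome 2, in which the closest peak was 559 kb from Il1rn.

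Il2, the T cell growth factor gene on the minus strand of chromosome 3, had 2 peaks upstream of its start. The first was centred at 2.49 kb (chr3:37128246-37128645). The second was centred at 47.5 kb (chr3:37173280-37173679), inside the noncoding gene Gm36000. It was 49.3 kb from Il21, the next coding gene, so it too sat almost midway between 2 ligands of the common gamma chain family. Il21 itself was given no peak.

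Il15, the common gamma chain cytokine that sustains natural killer cells, held both of its peaks. They lay 2.64 kb (chr8:82400409-82400808) and 19.6 kb (chr8:82383417-82383816) from the upper end of the 71.6 kb gene, where "upper" is the end with the larger coordinate. No other coding gene was closer than 249 kb to either, so these 2 peaks had no competing gene nearby.

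Il6, which encodes the founding cytokine of the gp130 family, had 1 peak inside the gene, 1.72 kb downstream of its start (chr5:30014632-30015031). The noncoding gene A230098N10Rik also spanned that peak. A second peak lay 39.3 kb upstream (chr5:29973588-29973987). Il10, an anti-inflammatory cytokine gene, held 1 peak, 1.68 kb from its upper end (chr1:131023087-131023486). Its neighbours of the same family, Il19, Il20 and Il24, were given none, and for all 3 the closest peak was this one in Il10, at 77.8, 112 and 136 kb.

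**Figure D2:**
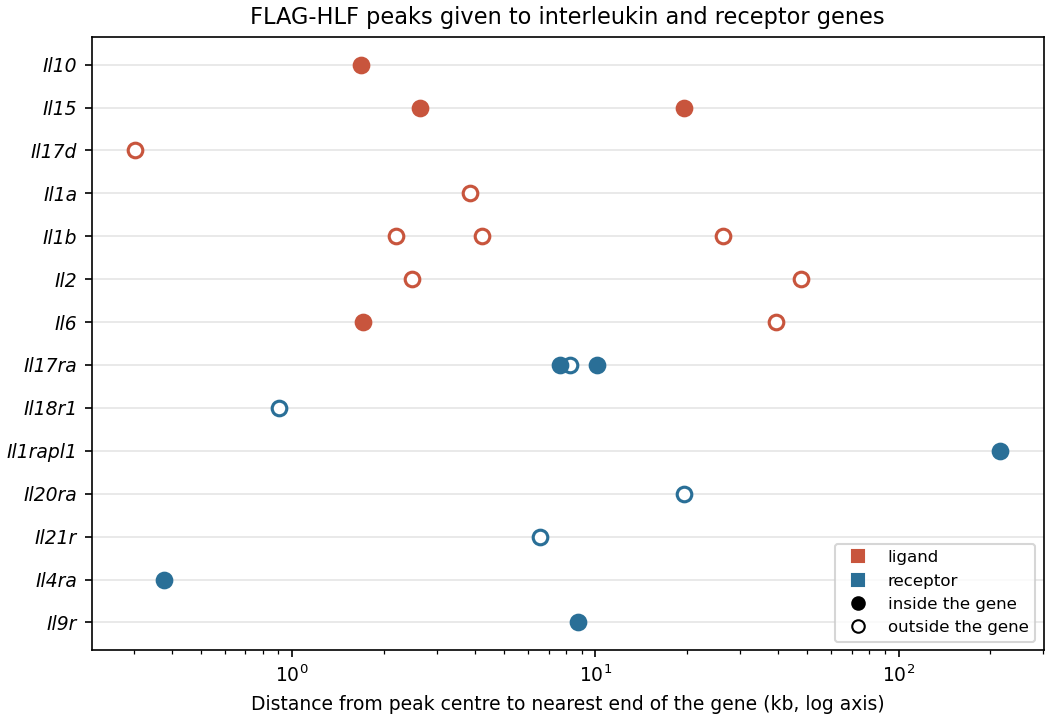
Distance of each of the 21 peak centres from the nearest end of the gene it was given to, in kb on a log axis, with 1 line per gene. Red marks ligands, blue marks receptors, filled circles are centres inside the gene and open circles centres outside. The Il17d and Il4ra peaks are closest to a gene end, at 0.303 and 0.378 kb, and the Il1rapl1 peak is the farthest at 216 kb.

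Among the receptors, 3 of the 7 genes with a peak encode chains of common gamma chain receptors. Il4ra, the chain that binds IL-4 and also serves IL-13, held a peak 0.378 kb downstream of its start (chr7:125552450-125552849). Il21r, the IL-21 receptor chain, is the next gene on the same strand, and its peak lay 6.75 kb upstream of its start (chr7:125596480-125596879). That peak was 17.2 kb from the far end of Il4ra, so 2 adjacent receptor genes each had a peak within 7 kb of their start. Il9r, the IL-9 receptor chain, held 1 peak 3.95 kb downstream of its listed start (chr11:32196128-32196527). The nearest end of the gene was 8.78 kb from that peak, so the listed start lies inside the gene bounds used here. Counting ligands and receptors together, 5 of 14 genes of this family had a peak (35.7%, against 11.1% of all coding genes). The others were Il4, Il7, Il9 and Il21 among ligands and Il2ra, Il2rb, Il2rg, Il7r and Il15ra among receptors.

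Il17ra, the chain shared by receptors of the IL-17 family, had the most peaks of any receptor in the group, with 3. There were 2 inside the gene, 7.63 kb from its lower end (chr6:120470616-120471015) and 10.1 kb from its upper end (chr6:120473442-120473841). The third was 8.25 kb outside the lower end (chr6:120454733-120455132) and 10.4 kb from the next coding gene, Kdm5a. Il17ra and Il17d were the members of the IL-17 family with a peak, 2 of 11 (18.2%, against 11.1% of all coding genes).

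Il18r1, the IL-18 receptor chain, had 1 peak 0.903 kb past its upper end (chr1:40501558-40501957). The gene is on the plus strand, so this is the side where transcription ends, and the nearest listed start was 35.8 kb away. The same peak lay 13.6 kb before Il18rap, the accessory chain of that receptor. It was the only peak within 100 kb of Il1rl1, Il18r1 or Il18rap. Il1r1, Il1r2 and Il1rl2, which lie in the same cluster of IL-1 receptor genes, were 134 to 377 kb from it.

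Il20ra, a receptor chain for IL-10 family cytokines, had 1 peak 20.5 kb upstream of its start (chr10:19691847-19692246), inside the noncoding gene Gm33332. The next coding gene was Il22ra2, which encodes a secreted binding protein for IL-22, at 57.4 kb. Il22ra2 had no peak by the rule, although 2 peaks were centred 7.45 and 8.36 kb from it. Both were closer to Ifngr1, an interferon gamma receptor chain, at 4.35 and 3.44 kb.

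Il1rapl1, an IL-1 receptor family member known mainly for its role at neuronal synapses, held 1 peak on chromosome X (chrX:87899265-87899664), 216 kb downstream of its start. The gene spans 1375 kb. Of the 59 coding genes of at least 1 Mb, 7 had a peak (11.9%). It was the only one of the 5 members on X with a peak, and 2.38% of all coding genes on X had one. The peak was given to it because the gene held it, and by nearest gene end within 100 kb it went to no gene.

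**Figure D3:**
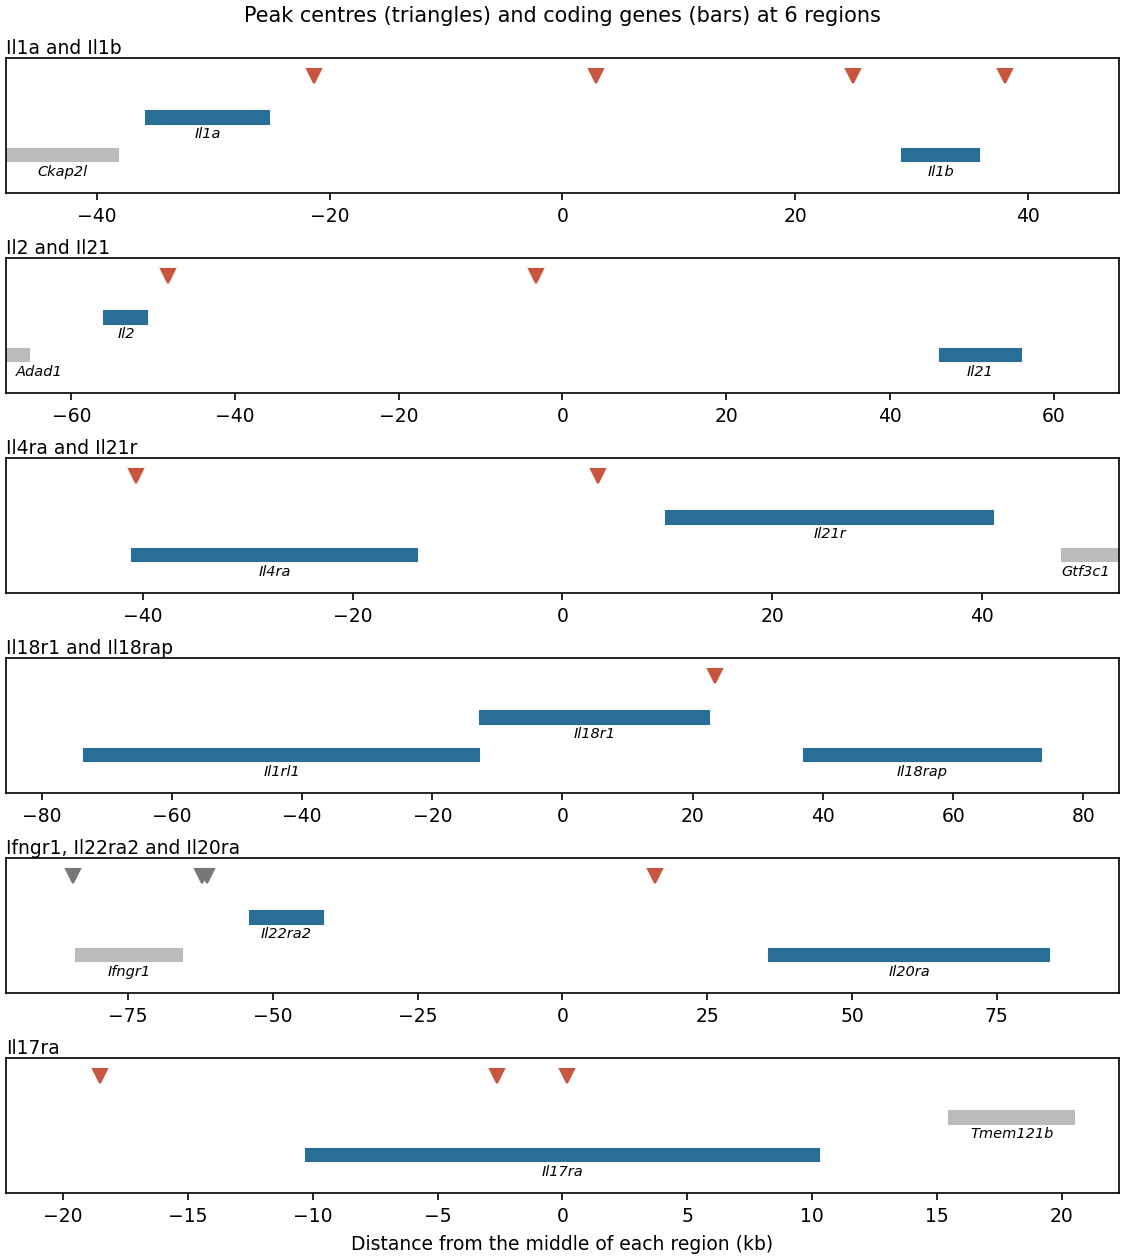
Maps of 6 regions, with the distance from the middle of each region in kb on the horizontal axis and a separate scale per panel. Bars are coding genes (blue for interleukin and receptor genes, grey for others), and triangles are peak centres (red where given to a blue gene, grey where given to Ifngr1). The gap between Il1a and Il1b holds 3 triangles, and the peak before Il21r and the peak in Il4ra both lie near the start of the gene they were given to.

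The genes for IL-7 and IL-3, which were in the culture medium, and for 3 of their receptor chains with an interleukin symbol were among those without a peak. The closest peak was 1149 kb from Il7 and 879 kb from Il7r, which encodes the specific chain of the IL-7 receptor. It was 501 kb from Il2rg, which encodes the common gamma chain. Il3 had its closest peak at 115 kb, just outside the limit of 100 kb, and Il3ra at 258 kb. None of the 4 genes of the IL-3 and IL-5 family had a peak. A peak was, however, given to Csf2rb2, the mouse beta chain specific to the IL-3 receptor, 3.96 kb outside the gene (chr15:78278349-78278748). The related genes Csf2rb and Csf2ra were given none.

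Of the IL-6 and IL-12 family, which includes the shared signalling chain gp130 (Il6st), 1 of 16 genes had a peak (6.25%, against 11.1% of all coding genes). That gene was Il6, so 0 of the 9 receptor chains had one. The closest peak to Il6st was 205 kb away. The remaining genes of that family without a peak were Il11, Il12a, Il12b, Il23a, Il27 and Il31 among ligands and Il6ra, Il11ra1, Il11ra2, Il12rb1, Il12rb2, Il23r, Il27ra and Il31ra among receptors.

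In all, 69 genes had no peak by the rule, 32 ligands, 35 receptors and the 2 oxidase genes. The ones not yet named are Il1f5, Il1f10, Il5, Il13, Il16, Il17a, Il17b, Il17c, Il17f, Il25 and Il34 among ligands. Among receptors and binding proteins they are Il1rap, Il1rapl2, Il5ra, Il10ra, Il10rb, Il13ra1, Il13ra2, Il17rb, Il17rc, Il17rd, Il17re, Il18bp, Il20rb and Il22ra1. For 7 of the 69, a peak given to another gene was centred within 20 kb. Besides Il18rap and Il22ra2 these included Il17c, 6.52 kb from a peak inside Cyba, and Il17rb, 15.7 kb from one inside Chdh. Il12rb1 was 16.7 kb from a peak inside Mast3. With every peak inside or within 20 kb counted, whichever gene was nearest, 21 of the 83 genes (25.3%) had one, against 15% of all coding genes. These rested on 24 distinct peaks, 3 of which were near 2 members at once.

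At longer range the shares of the group stayed above those of all coding genes, by an amount that varied. A peak lay inside or within 100 kb of 35 of the 83 genes (42.2%), against 36.3% of all coding genes. Within 200 kb it was 61.4% against 51.7%, and within 1000 kb 91.6% against 83.5%. Within 500 kb it was 75.9% against 71.8%, and there ligands were below all coding genes (69.2%) and receptors above (81.0%). The median distance to the closest peak was 120 kb against 181 kb. Within 100 kb the share was 41.03% for ligands and 40.5% for receptors. Neighbouring members share peaks, since 16 of the 46 peaks within 100 kb were near 2 or more members, so the genes do not count as independent. The median gene length was 14.6 kb against 17.1 kb for all coding genes, and ligand genes were shorter (6.6 kb) than receptor genes (31.8 kb).

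**Figure D4:**
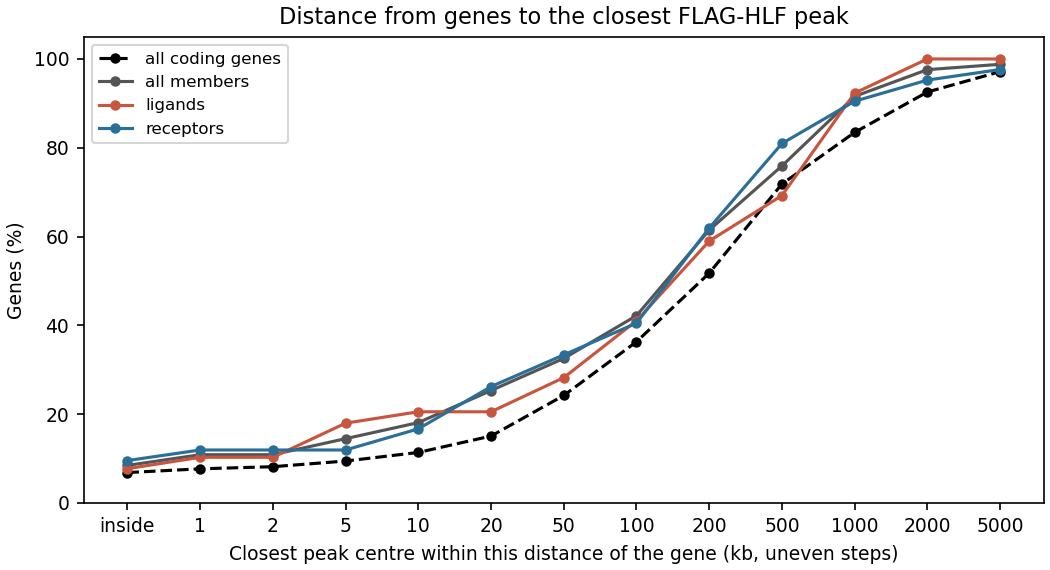
Share of genes, in percent, whose closest FLAG-HLF peak centre lies inside the gene or within the distance on the horizontal axis (kb, in uneven steps). Lines show all coding genes (dashed), all 83 members, ligands and receptors. At 20 kb the members are at 25.3% and all coding genes at 15%, and at 100 kb they are at 42.2% and 36.3%.

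The peaks of the group lay less often inside a coding gene than all peaks given to one, and had a shorter median distance to its nearest end. Their median distance from the nearest gene end was 6.57 kb, against 12.8 kb for all 2994 peaks given to a gene. Of the 21, 10 lay within 5 kb (47.6%, against 30.4%) and 3 within 1 kb (14.3%, against 11.2%). Inside the coding gene were 9 of the 21 (42.9%, against 58.2%). Noncoding genes were not considered in this count, so the centres within Il1bos, Gm36000 and Gm33332 counted as outside. By role, 8 of the 12 ligand peaks and 2 of the 9 receptor peaks lay within 5 kb of an end, but the order was the opposite within 1 kb (1 and 2 peaks) and, as shares, within 20 kb (75% and 88.9%). Inside the gene were 4 of the 12 ligand peaks and 5 of the 9 receptor peaks. A centre inside a short gene is necessarily near an end, and the median length was 6.6 kb for ligand genes and 31.8 kb for receptor genes. The distances were not adjusted for gene length. All these values describe few peaks and were not tested.

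Genes that act next to these receptors were counted by the same rule from 3 lists. The lists were chosen with earlier results of these data known, and whether their shares differ from the background was not tested. Of 25 genes for JAK kinases, STAT factors and their inhibitors, 6 had a peak (24%, against 11.1% of all coding genes). The kinase genes were Jak2 and Tyk2, each with a peak inside, at 19.5 and 2.4 kb from an end. Stat3 held 1 peak 1.22 kb from an end. Among inhibitors and phosphatases, Socs3 had 1 peak 19.5 kb outside, Pias1 had 1 at 50.7 kb outside, and Ptpn11, which encodes SHP2, had 2 at 6.996 and 51.8 kb outside. Jak1, Jak3 and both Stat5 genes had none.

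Of 14 genes for adaptors and kinases of IL-1 and IL-17 signalling, 4 had a peak (28.6%, against the same 11.1%). Irak3, which encodes an inhibitory member of the IRAK kinases, had 1 peak at each of its ends, 0.003 kb (chr10:120201934-120202333) and 0.307 kb (chr10:120141142-120141541) outside the gene. The former overlapped the listed Irak3 promoter. Irak2 held 1 peak, at 25.1 kb from an end. Tab2 held 1 at 23.4 kb and had another 64.9 kb outside, and Map3k7, which encodes the kinase TAK1, held 1 at 12.5 kb. Myd88, Irak1, Irak4 and Traf6 had none. Of 17 cytokines and receptor chains of the same families without an interleukin symbol, 2 had a peak (11.8%, near the background of 11.1%), Csf2rb2 and Lifr. The Lifr peak, at the LIF receptor gene, was 5.23 kb outside.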

How the data were processed

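Per the submitters' processing notes, Bowtie2, bedtools and MACS2 were used with the build mm10 (GRCm38), named without role or version. The sources used here do not give the peak threshold, the filters or the use made of the GFP library. The deposited FLAG-HLF list has 3 columns, the chromosome with start and end positions, and neither header nor score. Coordinates are printed from 1. The peak centre is the deposited start plus 200 bases. Gene bounds were those of RefSeq for GRCm38.p6 (49997 genes, 21900 of them coding), and strands, starts and promoter sequences from a RefSeq promoter table. That table lists 66 of the 83 genes. Of those with a peak it lacks Il10, Il15 and Il17ra, for which lower and upper gene ends are given in place of starts. Where several genes held a centre, the one with the nearest end took it.

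The members, roles, families and pathway lists were chosen with earlier results of these data known. Il4i1b was added to the roles after the gene table was read. The genes named are all those with a peak, those near a peak, the receptors and cytokines of the medium, and pathway genes with a peak. The details of 1 peak near members are not reported here. All other members are named as having no peak, and those described beyond that were chosen after their values were seen. The background for each count is the share of all coding genes that meet the same rule, and no test was run. The assignment was tested on simulated data. The alternatives changed the distance limit, the assignment, the gene types and the lines used. Python 3.11.15, numpy 2.4.6, pandas 2.3.3 and matplotlib 3.10.9 were used.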

Additional observations from a re-analysis of the deposited data

How the results depend on the processing

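Of 44 alternative values for the 4 counts (genes with a peak, ligands, receptors, and peaks), 35 stayed within 1.5 times the reported one. The 4 counts overlap, so these values are not separate checks. A limit of 50 kb could not change them, because no peak of the group outside its gene was farther than 47.5 kb. With only peaks inside a gene counted, 7 genes had one (3 ligands, 4 receptors, 9 peaks), or 8.43% against 6.73% of all coding genes. With every coding gene within 20 kb given the peak, 21 genes had one in place of 14 (25.3%, against 15% of all coding genes). That is at the bound of 1.5 times and was counted as within it. The receptors with a peak then numbered 11. In the last 1577 lines of the file, 6 genes had a peak (4 ligands, 2 receptors, 6 peaks), or 7.23% against 6.15%. In the first 1576 it was 12 genes, or 14.5% against 6.11%. With the limit at 5 kb, Il20ra and Il21r lost their peak, and with noncoding genes in the assignment Il1a and Il20ra did. A stricter peak threshold could not be tried, because the list has no score, and depth is unknown. No paired analysis was possible because there is 1 library per arm.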

Other observations

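The order of the lines in the deposited list is not explained in the sources used here. Of the 21 peaks at interleukin and receptor genes, 15 lay in lines up to 1576 and 6 in the 1577 after that. The earlier lines thus held 71.4%, against 49.8% of all 2994 peaks given to a gene. By role it was 8 of 12 ligand peaks and 7 of 9 receptor peaks. The earliest were the distant Il2 peak (line 140), the Il18r1 peak (line 190), the upper of the peaks in Il17ra (line 234) and the Il1rapl1 peak (line 268). The last was the other peak in Il17ra, at line 3033. This division was not tested.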
